A study of Macaca mulatta with 4 samples.

Results

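NMDA receptors are glutamate-gated calcium channels built as tetramers of GRIN1, the obligatory subunit that binds glycine or D-serine, with GRIN2 subunits that bind glutamate or GRIN3 subunits that bind glycine. GRIN2B and GRIN2D prevail before birth in most of the brain and give slowly closing channels. In cerebellar granule cells GRIN2A and GRIN2C are the subunits known to take over as the cells mature and form mossy fibre synapses, and GRIN2C is also known from Bergmann glia. The 6 genes described here, GRIN1, GRIN2A, GRIN2B, GRIN2C, GRIN2D and GRIN3A, were taken by symbol from the 30807 genes of a single-nucleus RNA-seq series of the fetal rhesus macaque cerebellum, and each of the 6 symbols was found. Their Ensembl identifiers are ENSMMUG00000001661, ENSMMUG00000010142, ENSMMUG00000019112, ENSMMUG00000005744, ENSMMUG00000005983 and ENSMMUG00000016675, in the same order.

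The 4 libraries came each from the flash-frozen left cerebellar hemisphere and left vermis of 1 fetus. The 2 Control fetuses, a female and a male at 130 days of gestation, came from pregnancies without intervention. The 2 LPS fetuses, a female at 131 days and a male at 133 days, were collected 5 days after 1 mg of lipopolysaccharide, a bacterial wall component, had been injected into the amniotic fluid as a model of chorioamnionitis. The Control group received no injection, so the injection itself and LPS cannot be told apart.

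Barcodes with at least 500 genes were taken as nuclei, which gave 32587 nuclei, between 6905 and 9256 per library. The 2 male libraries were shallower, with a median of 1882 and 2308 UMIs (unique molecular identifiers, the count of captured RNA molecules) per nucleus against 4506 and 4062 in the 2 female libraries. In the LPS male library 38.7% of all UMIs lay in nuclei, against 58.7% to 74.1% in the others, so this library held the most RNA outside nuclei. Between 16 and 22 barcodes were shared by any pair of libraries. Levels are given as CPM, counts per 1e+06 UMIs, taken over the summed UMIs of all nuclei of a class in a library. Introns were counted, so a level in a nucleus includes unspliced RNA. Levels were compared for 1 gene between classes, stages and libraries and not between genes, since no gene lengths of the files' genome build were used. Because p-values of LPS against Control rest on 1 library per fetus and 2 fetuses per group, they measure the spread between these fetuses. Those between granule stages compare stages within each library, and measure how much the stage differences vary between the libraries.

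Clustering, from which the 6 genes were left out, yielded 22 clusters, and marker genes assigned 20 of them to 14 classes. The granule lineage held 22361 nuclei and was split by its own markers into 6 stages, from proliferating precursors through committing, migrating, maturing and later cells to mature granule cells. In each named cluster at least 7 genes of its marker list were raised, and the 3229 nuclei of 2 clusters without a name, one of very low UMI number and one mostly of doublets, were left out. The names Committing, Migrating, Maturing, Later and Mature refer to marker lists and not to position in the tissue. Over all nuclei GRIN2B was detected most often, with 71500 UMIs in 54.4% of nuclei, and GRIN2C least often, with 1156 UMIs in 3.10%. The granule lineage held 73.4% of the GRIN2B UMIs and 56.8% of the GRIN2C UMIs. By library the GRIN2C share was 39.9% in the Control female, 31.6% in the Control male, 36.4% in the LPS female and 73.7% in the LPS male. Granule nuclei made up 73.7%, 70.2%, 74.3% and 55.8% of the nuclei in the same order.

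Along the granule lineage the subunit genes followed different courses. GRIN2D was high in precursors and committing cells, GRIN1 peaked in committing cells and was lowest in migrating cells, GRIN2B rose at migration and was highest in maturing cells, and GRIN2A and then GRIN2C rose last. In the test of mature granule cells against proliferating precursors, GRIN2A, GRIN2B, GRIN2C and GRIN3A were higher, GRIN2D was lower and GRIN1 did not pass, so 5 of 6 members were called where 61.1% of all 12326 tested genes were, 30.8% higher and 30.3% lower (edgeR quasi-likelihood test on UMIs summed by stage and library, adjusted p under 0.1 and absolute log2 fold change over 0.25). Against migrating cells GRIN1, GRIN2A, GRIN2C and GRIN3A were higher in mature cells, GRIN2D was lower and GRIN2B did not pass, again 5 of 6 members, where 50.5% of genes were called, 24.9% higher and 25.6% lower. Since most genes changed along the lineage, the counts say little about these 6 genes, and the sizes and the order of the changes are given instead. The stages were drawn from other genes of the same nuclei, so the p-values take the stages as given.

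**Figure D1:**
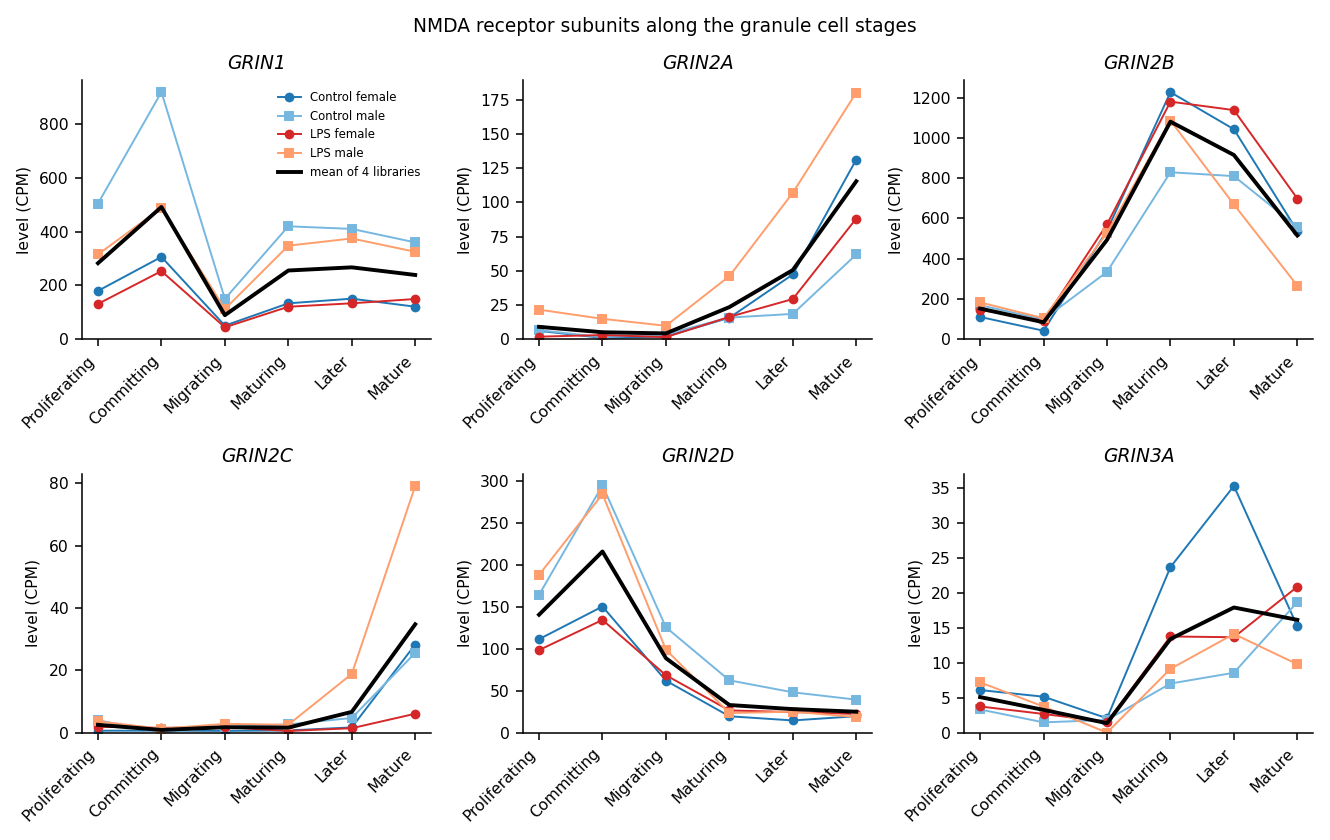
Level of each subunit gene (CPM, vertical axis) in the 6 granule stages (horizontal axis) for the 4 libraries (points and thin lines, circles female and squares male) and their mean (black line). GRIN2B peaked in maturing cells at a mean of 1081 CPM, while GRIN2A and GRIN2C were highest in mature cells at means of 115.5 and 34.8 CPM.

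GRIN1, the subunit that every NMDA receptor needs, did not rise steadily. Its level in committing cells was 306 CPM in the Control female, 919 CPM in the Control male, 253 CPM in the LPS female and 488 CPM in the LPS male library. In migrating cells the same libraries gave 50.6, 150, 44.4 and 112 CPM, so every library fell and the 2 sets of values did not overlap. The fitted log2 difference, migrating minus committing, was -2.19 ± 0.12 (SE, edgeR adjusted p = 2.4e-12). GRIN1 rose again in every library between migrating and maturing cells, by 1.55 ± 0.11 on the log2 scale (edgeR adjusted p = 5.1e-10), and thereafter stayed at means of 256 CPM in maturing, 267 CPM in later and 239 CPM in mature cells. The difference between mature cells and proliferating precursors was 0.09 ± 0.11 on the log2 scale (edgeR adjusted p = 0.517).

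GRIN2D, the slowly closing GRIN2 subunit of the embryonic brain, was an early gene of the lineage. Its level in committing cells was 150 CPM in the Control female, 295 CPM in the Control male, 134 CPM in the LPS female and 285 CPM in the LPS male library. In mature cells it was 19.6, 39.4, 22.2 and 18.6 CPM in the same order. No library of mature cells reached the lowest value of committing cells. GRIN2D was higher in committing cells than in precursors by 0.51 ± 0.17 and then fell, with a log2 difference of -0.96 ± 0.18 into migrating and -1.41 ± 0.19 into maturing cells (edgeR adjusted p = 0.0369, 9.7e-05 and 4.3e-06). The first of these calls was lost without the Control female library (0.57, edgeR adjusted p = 0.107), without the Control male library (0.43, edgeR adjusted p = 0.162), without the library block, the term that compares stages within each library (edgeR adjusted p = 0.568), and after subtraction of the RNA outside nuclei (edgeR adjusted p = 0.162). From proliferating precursors to mature cells the log2 difference was -2.30 ± 0.22 (edgeR adjusted p = 5.2e-09).

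GRIN2B, the glutamate-binding subunit of immature synapses, was at its lowest in committing cells, with 42.1 CPM in the Control female, 98.3 CPM in the Control male, 92.1 CPM in the LPS female and 104 CPM in the LPS male library. In maturing cells these libraries gave 1227, 829, 1180 and 1086 CPM. The 2 ranges lay far apart, and the rise came in 2 steps: 2.90 ± 0.29 on the log2 scale into migrating cells (edgeR adjusted p = 3.3e-08) and 1.20 ± 0.26 into maturing cells (edgeR adjusted p = 8.3e-04). From proliferating precursors to committing cells GRIN2B was lower in 4 of 4 libraries, with a log2 difference of -0.97 ± 0.30 (edgeR adjusted p = 0.0210). Levels in precursors and committing cells lay under those of the RNA outside nuclei, which was 360 to 504 CPM in barcodes with at most 100 UMIs. Another set of empty barcodes, with more UMIs each, gave 249 CPM in the Control female, 587 CPM in the Control male, 136 CPM in the LPS female and 544 CPM in the LPS male library. Both stages lay under these too, except the LPS female precursors. When the estimated share of RNA outside nuclei, taken from barcodes with at most 100 UMIs, was subtracted, committing cells kept no GRIN2B UMI in the Control female and LPS male libraries. With called doublets removed the mean was 87.3 CPM in precursors, in place of 152 CPM, and 83.9 CPM in committing cells. The difference between these stages was then -0.08 ± 0.37 on the log2 scale and did not pass the test (edgeR adjusted p = 0.918), nor did it with stages from the marker score (-0.12, edgeR adjusted p = 0.766) or without the library block (-0.92, edgeR adjusted p = 0.101).

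GRIN2B then declined. Mature cells held 538 CPM in the Control female, 558 CPM in the Control male, 699 CPM in the LPS female and 266 CPM in the LPS male library, each below the same library's maturing cells, and the 2 ranges did not overlap. The mean of mature cells was 0.477 of the mean of maturing cells. From later to mature cells GRIN2B fell in 4 of 4 libraries, with a log2 difference of -0.88 ± 0.26 (edgeR adjusted p = 0.0339), and of all genes 11.2% were called at this last step. The call was lost without the LPS female library (-0.96, edgeR adjusted p = 0.112), without the library block (edgeR adjusted p = 0.337) and after subtraction of the RNA outside nuclei (-1.05, edgeR adjusted p = 0.228). Between migrating and mature cells 2 libraries rose and 2 fell, and the log2 difference of 0.11 ± 0.26 did not pass the test (edgeR adjusted p = 0.776), which does not show that the levels were equal.

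GRIN2A, the subunit of mature, faster receptors, was low in migrating cells, with 2.06 CPM in the Control female, 3.63 CPM in the Control male, 1.52 CPM in the LPS female and 9.83 CPM in the LPS male library. Between 6 and 14 UMIs per library stood behind these values. In mature cells the libraries gave 131, 62.0, 88.3 and 180 CPM, from 63 to 884 UMIs. All 4 mature values lay above all 4 migrating values. The gene rose in 4 of 4 libraries at each of the last 3 steps, by 2.75 ± 0.38 into maturing cells, 1.12 ± 0.24 into later cells and 1.29 ± 0.21 into mature cells on the log2 scale (edgeR adjusted p = 5.3e-06, 0.0018 and 3.0e-04). The last of these was 0.78 and not called with stages from the marker score (edgeR adjusted p = 0.110), and without the library block neither of the last 2 steps was called. From migrating to mature cells the log2 difference was 5.16 ± 0.33 (edgeR adjusted p = 1.5e-11). It was 4.04 with stages from the marker score and 8.02 after subtraction of the RNA outside nuclei, where 0 to 3 UMIs per library remained in migrating cells.

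GRIN2C, the subunit that marks adult granule cells, came on last. In maturing cells it was at 0.697 CPM in the Control female, 2.64 CPM in the Control male, 0.519 CPM in the LPS female and 2.54 CPM in the LPS male library, with 2 to 6 UMIs each. In mature cells it reached 28.3, 25.6, 6.06 and 79.2 CPM. The ranges were separate, and the LPS female and LPS male libraries were the lowest and the highest of the mature cells, with 9 and 388 UMIs. The log2 difference was 1.82 ± 0.54 from maturing to later cells and 2.65 ± 0.33 from later to mature cells (edgeR adjusted p = 0.0236 and 1.1e-05). Without the LPS male library the first of these was 1.10 and not called (edgeR adjusted p = 0.321), and without the library block neither step was called (edgeR adjusted p = 0.299 and 0.180). Earlier steps did not pass the test. GRIN2C was found in 12.6% (exact 95% interval 9.72 to 16.1%) of mature nuclei in the Control female, 5.39% (3.49 to 7.92%) in the Control male, 2.96% (1.36 to 5.55%) in the LPS female and 21.4% (19.3 to 23.5%) in the LPS male library, intervals that cover counting error only. The LPS libraries were thus the lowest and the highest. In committing cells the shares were 0 to 0.477%, at median depths of 1535 to 3380 UMIs against 2047 to 4875 UMIs in mature cells. After each mature nucleus with at least 1000 UMIs was thinned to that number, the shares were 3.11%, 2.88%, 0.330% and 7.45% in the same order. Nuclei with fewer UMIs, 1, 28, 1 and 5 per library, were left out.

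GRIN3A, which lowers the calcium permeability of the receptor, was detected in few granule nuclei. Its level in migrating cells was 2.06 CPM in the Control female, 1.82 CPM in the Control male, 1.52 CPM in the LPS female and 0 CPM in the LPS male library. In maturing cells the values were 23.7, 7.03, 13.8 and 9.13 CPM. GRIN3A thus rose in 4 of 4 libraries and the ranges did not overlap (log2 difference 3.31 ± 0.40, edgeR adjusted p = 7.6e-07). From maturing to later and from later to mature cells it did not pass the test. The Control female library stood highest in later cells at 35.3 CPM, against 8.57 to 14.1 CPM in the others.

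Step by step, 2 of 6 members were called higher and 1 lower between precursors and committing cells, where 26.8% of all genes were called, 11.6% higher and 15.2% lower. The lower one was GRIN2B, whose call was lost with doublets removed. Between committing and migrating cells 1 was higher and 2 were lower (48.3% of genes, 24.9% higher and 23.4% lower). Between migrating and maturing cells 4 were higher and 1 was lower (36.8% of genes, 18.1% higher and 18.8% lower). At the last steps 2 were higher and 0 lower between maturing and later cells (18.9% of genes, 10.7% higher and 8.2% lower), and 2 higher and 1 lower between later and mature cells (11.2% of genes, 5.72% higher and 5.48% lower). At the step from migrating to maturing cells GRIN2C was the exception. At the step from later to mature cells the 3 members moved in different directions, GRIN2A and GRIN2C higher and GRIN2B lower.

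The balance of subunits was followed as the log2 ratio of GRIN2A or GRIN2C UMIs to GRIN2B UMIs, summed over the nuclei of a stage in each library. Only its change is read, since the ratio itself depends on how well each gene is captured. For GRIN2A it was -6.28 in the Control female, -5.69 in the Control male, -6.16 in the LPS female and -4.55 in the LPS male library in maturing cells. In mature cells it was -2.03, -3.16, -2.98 and -0.56. The rise from maturing to mature cells was 3.49 ± 0.78 (SD, n = 4 libraries) on the log2 scale, and each library rose by at least 2.53. For GRIN2C the rise was 5.26 ± 1.58 (SD, n = 4 libraries), the smallest 3.76 in the Control male library. After subtraction of the RNA outside nuclei the rise for GRIN2A was 3.90 ± 1.04. With stages from the marker score the rises were 2.86 ± 0.81 for GRIN2A and 4.29 ± 1.71 for GRIN2C, with smallest values of 1.82 and 2.70. No value after subtraction is given for GRIN2C, since at most 1 GRIN2C UMI per library then remained in maturing cells. From migrating to mature cells the GRIN2C ratio rose by 3.87 ± 2.025 (SD, n = 4 libraries), the smallest rise being 1.46 in the LPS female library. In that library the mature ratio was -6.77, from 9 GRIN2C UMIs. This lay under its precursors, at -6.15 from 5 UMIs, and its committing cells, at -5.75 from 4 UMIs. In each of the other libraries mature cells had the highest GRIN2C ratio.

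**Figure D2:**
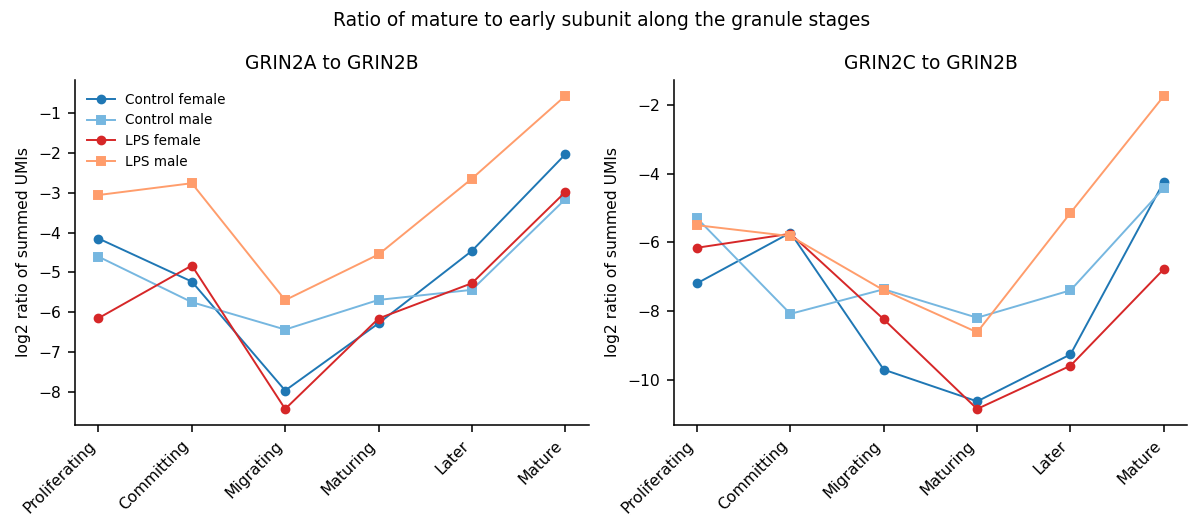
Log2 ratio of GRIN2A (left) and GRIN2C (right) UMIs to GRIN2B UMIs (vertical axes) in the 6 granule stages (horizontal axis), 1 line per library. Every line ended higher in mature than in maturing cells, and the LPS male line ended highest in both panels, at -0.56 and -1.75.

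Other genes of the pathway moved with maturation in mixed directions. Of 38 partner genes listed by role, 32 were tested in the granule stages, and in mature against migrating cells 14 were higher, 8 lower and 10 not called, where 24.9% of all genes were higher and 25.6% lower. Their median log2 difference was 0.31, against -0.03 over all genes tested. Among kinases and calcium signalling genes 6 of 9 tested were higher and 1 lower: CAMK2A and CAMK2B, the postsynaptic calcium kinases that bind GRIN2B, by 2.63 ± 0.48 and 2.77 ± 0.16, NOS1, the nitric oxide synthase tethered to the receptor, by 4.04 ± 0.24, and PTK2B, a calcium-activated tyrosine kinase, by 6.61 ± 0.48 on the log2 scale (edgeR adjusted p = 8.9e-05, 2.4e-12, 4.2e-12 and 1.1e-10). PTK2B was among the 10 leading genes of the mature cluster. Partner genes were not taken out of the clustering features, so any of them may have helped to draw the stages. All partner differences between stages are therefore a description. FYN, a tyrosine kinase that phosphorylates GRIN2B, was lower, with a log2 difference of -1.61 ± 0.09 (edgeR adjusted p = 2.8e-12).

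Of the scaffolds 4 of 14 tested were higher and 5 lower, near the 24.9% and 25.6% of all genes. DLG2, which holds receptors at the synapse, was higher by 1.38 ± 0.18 (edgeR adjusted p = 1.0e-06), and its relative DLG4 had a log2 difference of 0.22 ± 0.09, under the 0.25 needed for a call. SHANK3 was higher by 1.70 ± 0.20, MAGI2 by 2.23 ± 0.17 and LIN7A by 1.44 ± 0.13, while CASK, which links the receptor to its transport along microtubules, had a log2 difference of -1.73 ± 0.10 (edgeR adjusted p = 2.5e-07, 2.9e-10, 6.6e-09 and 5.4e-12). Of the auxiliary and organising genes 3 of 6 were higher and EPHB2, an ephrin receptor that binds GRIN1, was lower with -0.99 ± 0.15 (edgeR adjusted p = 8.9e-06). Of the genes of co-agonist supply 3 of 6 were tested, and 1 was higher, 1 lower and 1 not called. SLC1A4, a carrier of small neutral amino acids, was higher by 0.39 ± 0.12 (edgeR adjusted p = 0.0083). SLC6A9, the glycine transporter, was lower with a log2 difference of -2.51 ± 0.31 (edgeR adjusted p = 5.5e-07). Against proliferating precursors 16 partners were higher, 6 lower and 10 not called, where 61.1% of all genes were called, 30.8% higher and 30.3% lower, with a median log2 difference of 0.30 against 0.02 over all genes.

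Outside the granule lineage each subunit gene had its own pattern over the classes, given as a description over 13 classes beside the 6 granule stages. The ranges of the 4 libraries overlapped between all neighbours in the order of every gene. Within libraries some neighbours nevertheless kept their order in 4 of 4, such as Golgi over Purkinje cells for GRIN2A and fibroblasts over maturing granule cells for GRIN2B.

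**Figure D3:**
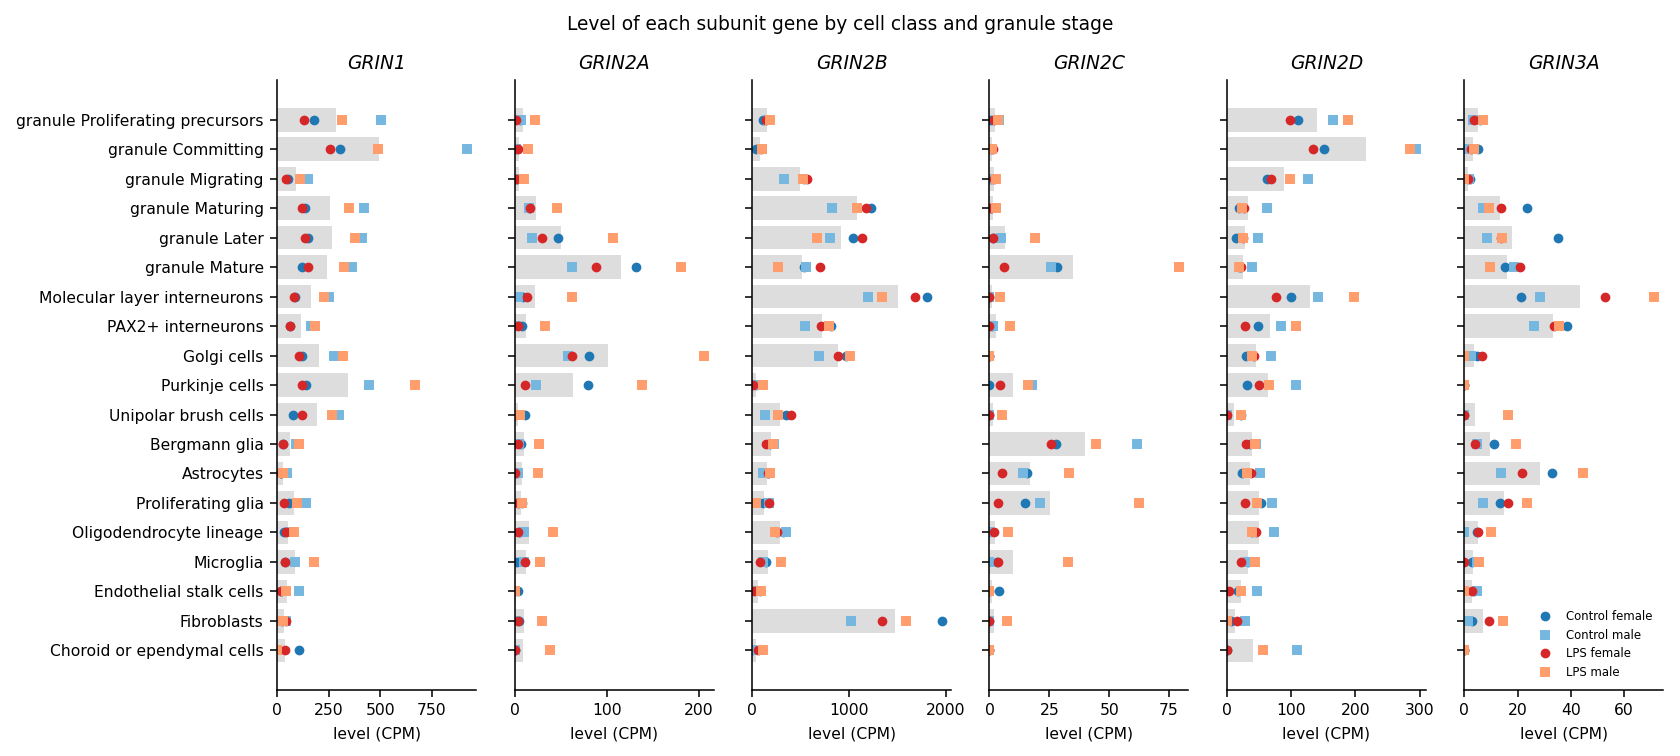
Level of each subunit gene (CPM, horizontal axes) in the 6 granule stages and the 13 other classes (vertical axis), with bars for the mean of 4 libraries and points for each library. GRIN2B was highest in molecular layer interneurons and fibroblasts, at means of 1510 and 1481 CPM. The mean of GRIN2C was highest in Bergmann glia, at 40.0 CPM, which were above mature granule cells in 2 of 4 libraries.

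GRIN2B was high in molecular layer interneurons, the stellate and basket cells, with 1813 CPM in the Control female, 1195 CPM in the Control male, 1687 CPM in the LPS female and 1346 CPM in the LPS male library. Among the other inhibitory classes Golgi cells, the interneurons of the granular layer, had 967, 690, 884 and 1013 CPM, and PAX2+ interneurons, the young inhibitory neurons, with 819, 548, 715 and 791 CPM. In these 3 inhibitory classes every library exceeded the 360 to 504 CPM of barcodes with at most 100 UMIs. Against the other set of empty barcodes the PAX2+ interneurons of the Control male library, at 548 CPM, were lower than its 587 CPM. The other values exceeded their own library's level there. Purkinje cells, the output neurons of the cortex, stood apart from these interneurons with 40.6, 23.0, 4.38 and 114 CPM, from 50 UMIs in 119 nuclei. All 4 Purkinje values lay below every value of the 3 interneuron classes, while Purkinje nuclei had the highest median UMI number of the named clusters, 10180, and carried GRIN1 at a mean of 343 CPM. This GRIN1 level ran from 120 to 668 CPM over the libraries, against 217 to 445 CPM in barcodes with at most 100 UMIs.

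The fibroblasts were not neurons, yet held GRIN2B at 1959 CPM in the Control female, 1026 CPM in the Control male, 1348 CPM in the LPS female and 1590 CPM in the LPS male library. In each library this was above its own maturing granule cells, and the order of fibroblasts and molecular layer interneurons was not settled, each being the higher in 2 of 4 libraries. GRIN2B was found in 67.5% (exact 95% interval 60.7 to 73.7%) of fibroblast nuclei in the Control male and 90.4% (84.1 to 94.8%) in the Control female library. In microglia, a class that should lack the gene, these shares were 18.7% and 32.5%, at median depths of 2091 and 3845 UMIs against 3227 and 4631 UMIs in fibroblasts. Among nuclei with at least 1000 UMIs, thinned to that number, the shares averaged 57.9% in fibroblasts and 13.2% in microglia. All 9 of 9 fibroblast markers were raised in the class, and 11.4% of its nuclei were called doublets. Its GRIN1 level was 34.3 ± 10.1 CPM (SD, n = 4 libraries), near that of astrocytes, the lowest class, at 26.4 ± 12.9 CPM. Without called doublets the mean GRIN2B level was 1606 CPM in fibroblasts and 1520 CPM in molecular layer interneurons, the reverse of the order with all nuclei.

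GRIN2A outside the granule lineage was highest in Golgi cells, with 80.8 CPM in the Control female, 58.2 CPM in the Control male, 62.0 CPM in the LPS female and 206 CPM in the LPS male library. Purkinje cells gave 79.5, 23.0, 10.9 and 138 CPM, a range that overlapped that of Golgi cells. Behind these values stood 136 UMIs in 197 Golgi nuclei and 80 UMIs in 119 Purkinje nuclei. Each class had only 15 nuclei in the LPS male library, whose RNA outside nuclei carried GRIN2A at 72.1 CPM. Endothelial stalk cells, with 2 UMIs in all, and unipolar brush cells, with 3, were at the low end.

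GRIN2C had a glial pattern besides mature granule cells. Bergmann glia, the radial astroglia around Purkinje cells, gave 27.6 CPM in the Control female, 61.8 CPM in the Control male, 25.9 CPM in the LPS female and 44.6 CPM in the LPS male library. Astrocytes of the other cluster gave 15.6, 13.9, 5.38 and 33.2 CPM, lower than Bergmann glia in each of the 4 libraries, and proliferating glia 14.9, 21.0, 3.63 and 62.4 CPM. In barcodes with at most 100 UMIs GRIN2C was at 4.79, 14.4, 4.81 and 19.3 CPM, from 6 to 26 UMIs. Bergmann glia exceeded this in every library, astrocytes in all but the Control male and proliferating glia in all but the LPS female. The other set of empty barcodes gave 3.24, 4.13, 1.92 and 8.78 CPM, under each of these glial values. No GRIN2C UMI was found in 197 Golgi nuclei, where 3 UMIs would have been 4.85 CPM in the Control female and 23.7 CPM in the LPS male library. Molecular layer interneurons held 2 GRIN2C UMIs in 226 nuclei.

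GRIN2D was higher in molecular layer interneurons, at 100 CPM in the Control female, 142 CPM in the Control male, 75.9 CPM in the LPS female and 197 CPM in the LPS male library, than in PAX2+ interneurons, at 48.2, 83.6, 28.7 and 107 CPM, in each of the 4 libraries. GRIN3A was highest in the same 2 classes, with means of 43.4 ± 22.9 and 33.4 ± 5.29 CPM (SD, n = 4 libraries), followed by astrocytes with 28.3 ± 13.5 CPM. In Purkinje cells no GRIN3A UMI was found, where 3 UMIs would have been between 4.87 and 24.4 CPM per library.

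By the profile over the 19 classes and stages, the genes most like GRIN2A among 13161 genes were OLFM1, a secreted glycoprotein of neurons (Pearson r = 0.902 of mean log2(CPM + 1)), ENSMMUG00000010357 (r = 0.885) and CMTM2 (r = 0.883). For GRIN2B they were TMTC2 (r = 0.871), BCKDHB (r = 0.848) and ENSMMUG00000046312 (r = 0.838), and for GRIN2C they were ADORA1, the adenosine A1 receptor (r = 0.862), CDH10 (r = 0.821) and PRR16 (r = 0.807). These correlations describe 19 points that share the 4 libraries.

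The comparison of LPS with Control asked whether prenatal inflammation went with other subunit levels. No member passed the edgeR test in any of the 6 classes compared, and neither did any other gene (0% called). In the granule lineage all 6 members were among 14881 genes tested, of which 27 had an unadjusted p under 0.05 with edgeR and 60 with DESeq2, which also called none. With a block by sex in edgeR, 273 of these genes had an unadjusted p under 0.05, and none was called. The absence of calls does not show that levels were equal. Of the members 6 were tested in mature granule cells and in astroglia, 5 in PAX2+ interneurons, 4 in Purkinje cells and 3 in the oligodendrocyte lineage. DESeq2 called 1 gene, no member, in the oligodendrocyte lineage and 0 in the others.

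The LPS and Control libraries overlapped for most members in most stages and in the other named classes with at least 20 UMIs of the gene. The exceptions are given as values, since they were picked out after the values were seen. Levels were not tested in single stages before mature cells, in molecular layer interneurons or in proliferating glia alone. Full separation of 2 libraries from 2 gives p = 0.333 (exact two-sided permutation test), and no share over all genes is given. The exceptions therefore do not set these genes apart. GRIN2B in the oligodendrocyte lineage was at 320 and 354 CPM in the Control female and male against 260 and 235 CPM in the LPS female and male libraries, and did not pass the test. GRIN3A in molecular layer interneurons was at 21.3 and 28.4 CPM in the Control against 52.8 and 71.1 CPM in the LPS libraries, from 7 to 31 UMIs each. GRIN2A was higher in both LPS libraries in molecular layer interneurons, from 1 to 27 UMIs each, in committing cells, at 3.06 and 14.9 CPM against 0.965 and 1.47 CPM, and in maturing cells, where 3 libraries lay between 15.7 and 16.4 CPM. In proliferating glia GRIN2D was lower and GRIN3A higher in both LPS libraries, from 3 to 32 UMIs each. GRIN2C in committing cells and GRIN3A in migrating cells were also apart, with 7 and 21 UMIs in all 4 libraries together.

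The spread was largest for the late subunits. In the granule lineage as a whole GRIN2A was at 31.0 CPM in the Control female, 15.5 CPM in the Control male, 19.1 CPM in the LPS female and 102 CPM in the LPS male library, and GRIN2C at 3.05, 4.92, 1.72 and 34.2 CPM. The LPS male library was far above the other 3, while the LPS female library lay within the Control range for GRIN2A and below it for GRIN2C. The fitted log2 differences, LPS minus Control, were 1.35 ± 0.88 for GRIN2A and 2.19 ± 1.32 for GRIN2C (edgeR adjusted p = 1.00 for both). Without the LPS male library they were -0.31 and -1.19. Within the female pair of libraries GRIN2A differed by -0.67 and within the male pair by 2.64 in log2(CPM + 1). Each pair is 1 library against 1, so sex cannot be told apart from the other properties of these libraries.

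The LPS male library also held more mature granule nuclei, 1508 against 451 in the Control female, 445 in the Control male and 304 in the LPS female library, and its RNA outside nuclei carried GRIN2A at 72.1 CPM against 9.62 to 15.6 CPM. Inside each of the 6 stages, and in 7 of 7 other classes with at least 20 GRIN2A UMIs, this library had the highest GRIN2A level. After subtraction of the RNA outside nuclei it kept 0 GRIN2A UMIs in committing cells, as did both Control libraries, against 5 in the LPS female library, and 0 in migrating cells, against 1 to 3 in the others. It kept 7 of 24 GRIN2A UMIs in precursors, where the Control female library kept 14 of 20, and 61 of 91 in maturing, 313 of 364 in later and 810 of 884 in mature cells. Within mature granule cells the log2 difference, LPS minus Control, was 0.41 ± 0.54 for GRIN2A and 0.63 ± 0.99 for GRIN2C (edgeR adjusted p = 1.00 for both). The age of this fetus, 133 days against 130 or 131 days, cannot be told apart from the other properties of its library.

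GRIN2B in the granule lineage was at 755 CPM in the Control female, 543 CPM in the Control male, 750 CPM in the LPS female and 497 CPM in the LPS male library. Both female libraries were above both male libraries, and LPS and Control overlapped, with a log2 difference of -0.07 ± 0.39 (edgeR adjusted p = 1.00). In mature cells, where the LPS male library was lowest, the difference was -0.15 ± 0.56. The log2 ratio of GRIN2A to GRIN2B in granule nuclei was -4.61, -5.13, -5.29 and -2.28 in the same order, so LPS exceeded Control by 1.08 on average (exact two-sided permutation test, p = 1.00). For GRIN2C to GRIN2B the ratios were -7.94, -6.77, -8.75 and -3.86, a difference of 1.06 (exact two-sided permutation test, p = 1.00). With 2 libraries against 2 the smallest p this test can give is 0.333. Adjusted over the 2 ratios both p-values stayed at 1.00. Within the female pair the differences were -0.69 and -0.81, within the male pair 2.84 and 2.92.

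**Figure D4:**
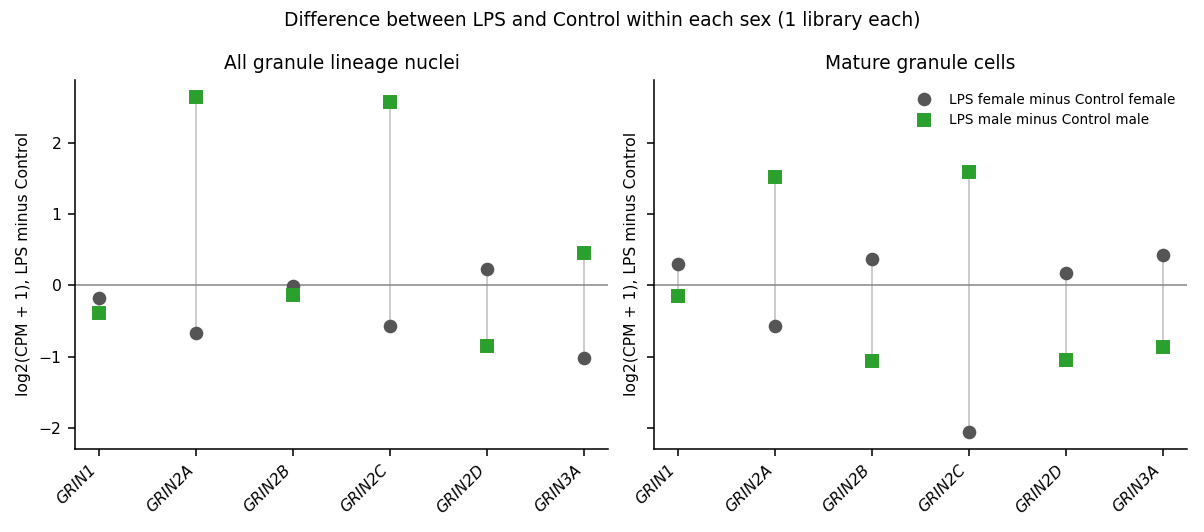
Difference between LPS and Control in log2(CPM + 1) (vertical axis) for the 6 genes (horizontal axis), within the female pair (circles) and the male pair (squares) of libraries, in all granule lineage nuclei (left) and in mature granule cells (right). For GRIN2A and GRIN2C the male pair lay above 0 and the female pair below it in both panels.

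GRIN1 was higher in both male than in both female libraries. In the granule lineage it was at 147 CPM in the Control female, 430 CPM in the Control male, 130 CPM in the LPS female and 327 CPM in the LPS male library. Both male libraries exceeded both female libraries in 6 of 6 granule stages and in 11 of 12 other classes with at least 20 GRIN1 UMIs. These groups share the same libraries, and no share over all genes is given beside the counts. In the granule lineage same-sex libraries deviated together from their group means over 13098 genes (r = 0.725). In barcodes with at most 100 UMIs GRIN1 was also higher in the male libraries, with 226 and 217 CPM in the female and 445 and 277 CPM in the male libraries. In the other set of empty barcodes it was not, with 170 and 135 CPM in the female and 155 and 99.5 CPM in the male libraries. The male libraries were also the shallower ones, so sex and library depth cannot be told apart. The log2 difference between LPS and Control was -0.29 ± 0.66 for GRIN1, -0.40 ± 0.42 for GRIN2D and -0.56 ± 0.65 for GRIN3A (edgeR adjusted p = 1.00 for each).

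Of the 38 partner genes 33 were tested in the granule lineage and none was called, with a median log2 difference of 7.2e-04 between LPS and Control against 0.0107 over all genes. DLG4 differed by -0.22 ± 0.45, DLG2 by 0.14 ± 0.43, CAMK2A by -0.08 ± 0.36 and CAMK2B by 0.32 ± 0.57. In mature granule cells 29 were tested and none was called.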

How the data were processed

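Nuclei were profiled with the 10x Chromium 3' kit in 4 libraries. The deposited matrices hold raw UMI counts per gene and barcode, which the authors made with Cell Ranger on the Mmul_8.0.1 genome with introns included. The version is given as 4 in the submitters' processing notes and differently in the protocol. No barcode had been removed, and the libraries had not been pooled. Library totals ran from 34282015 to 61665690 UMIs.

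Barcodes with at least 500 genes were kept. Libraries were integrated and clustered with Seurat 5.3.0 on 1998 features (30 dimensions, resolution 0.5), after 2 of the 6 genes had been taken out of the features. Clusters were named from marker lists. The rules that left a cluster unnamed (low UMI number, mostly called doublets) were set after the clusters were seen. Doublets were called with Scrublet (scanpy 1.11.5) and kept in the main values. Its automatic threshold called almost none in the male libraries, where the median of the other libraries' thresholds, 0.1891, was used, so 5.33% to 7.39% of nuclei were called per library. RNA outside nuclei was taken from barcodes with at most 100 UMIs. Another set of empty barcodes lay further down the UMI ranking than the nuclei, with median UMI numbers of 196 to 496 per library.

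UMIs were summed per library and class or stage and tested with edgeR 4.0.16 (quasi-likelihood test, filterByExpr, TMM, Benjamini-Hochberg adjustment over all genes tested), in R 4.3.3, with the library as a block for stages. SE was computed from the log2 difference and its F statistic. A gene was called when its adjusted p was below 0.1 and its log2 difference exceeded 0.25 in size. These limits were taken over from the study's granule cell comparison, where no log base is named. Its per-nucleus test was not used, since nuclei of 1 fetus are not replicates. Ratios were tested with an exact permutation test over libraries, with 0.5 UMIs added to each sum. Shares were compared after thinning to 1000 UMIs per nucleus, with nuclei under 1000 UMIs left out. Intervals and floors of 3 UMIs cover counting error only. The scripts were tested on simulated data.

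The 6 genes, the partner list and the markers were chosen with earlier results of these data known. The genes named were the 6 members, partners that passed the test together with DLG4, DLG2, CAMK2A and CAMK2B, and the 3 genes most like GRIN2A, GRIN2B and GRIN2C in profile. DLGAP1, DLGAP2, CAMK2D and SRR were not found by symbol. Alternatives were DESeq2 1.42.0, RLE scaling, no low-count filter, other nucleus filters, doublets removed, free RNA subtracted, naming by marker score, other blocks and leaving out each library. For the steps between neighbouring stages they were added after seeing the data.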

Additional observations from a re-analysis of the deposited data

Results flagged for a closer look

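In the granule lineage the difference between LPS and Control had opposite signs in the female and the male pair of libraries for 4 of the 6 genes. On the log2(CPM + 1) scale the male difference exceeded the female one by 3.31 for GRIN2A (female -0.67, male 2.64), by 3.15 for GRIN2C and by 1.48 for GRIN3A, and for GRIN2D the male minus female value was -1.08. In mature granule cells the signs were opposite for all 6 genes, with male minus female values of -0.45 for GRIN1, 2.10 for GRIN2A, -1.44 for GRIN2B, 3.64 for GRIN2C, -1.22 for GRIN2D and -1.30 for GRIN3A. For the log2 ratio of GRIN2A to GRIN2B the value was 3.53 in the lineage and 3.55 in mature cells, and for GRIN2C to GRIN2B it was 3.72 and 5.21. None of these differences was tested, since each sex had 1 library per condition. No share of all genes with opposite signs is given beside these counts, so they do not set the 6 genes apart.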

How the results depend on the processing

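No member was called between LPS and Control under any alternative in which it could be tested. In the granule lineage and in mature granule cells all 6 were tested in all 13 alternatives, while in the oligodendrocyte lineage GRIN2A was tested in 4 and GRIN2C and GRIN3A in 1, GRIN2C in PAX2+ interneurons and Purkinje cells in 1, and GRIN3A in Purkinje cells in 0. Counts of other genes called, 0 in each class, rose without the low-count filter to 6 in mature granule cells, 2 in PAX2+ interneurons, 12 in astroglia, 10 in the oligodendrocyte lineage and 4 in Purkinje cells. DESeq2 called 1 gene in the oligodendrocyte lineage, and a replicate block by sex called 30 there and 0 in the other 5 classes. Sex is no pairing of animals, yet same-sex libraries deviated together from their group means (r = 0.725 across 13098 genes). With 2 libraries per group the female and the male pair give the same r by construction, so this is 1 value. The main test, without the block by sex, counts the shared deviation of same-sex libraries as spread between the libraries of a group. Leaving out 1 library at a time gave 0 calls in the granule lineage, 0 to 1 in mature cells, 0 to 22 in PAX2+ interneurons, 0 to 38 in astroglia, 5 to 17 in the oligodendrocyte lineage and 1 to 11 in Purkinje cells. The lone library of a group was then assumed to vary like the others.

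Between stages, 6594 to 7413 genes were called for mature against proliferating cells (7534 with all libraries) and 5294 to 6027 for mature against migrating cells (6226). Without the library block, that is with no replicate block, the latter count was 3808. In both comparisons the calls of the members held under the alternatives except with stages from the marker score, where GRIN1 against precursors (0.33) and GRIN2B against migrating cells (0.51) passed. These 2 differences had a range of -0.024 to 0.19 and -0.10 to 0.40 over libraries left out. Of 16 calls of members at the 5 steps between neighbouring stages, 8 held under all 13 alternatives. Without the library block 8 were lost: GRIN1, GRIN2B and GRIN2D from precursors to committing cells, GRIN2A and GRIN2C from maturing to later cells, and GRIN2A, GRIN2B and GRIN2C from later to mature cells. With the marker score or the RNA outside nuclei subtracted 2 each were lost, and with doublets removed or any 1 library left out 1 each.

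In the granule lineage and in mature cells, directions between LPS and Control depended on single libraries, except for GRIN2D in mature cells (-0.84 to -0.037). Over libraries left out, the log2 differences in the granule lineage ran from -1.11 to 0.59 for GRIN1, -0.31 to 2.10 for GRIN2A, -0.40 to 0.29 for GRIN2B, -1.19 to 3.13 for GRIN2C, -0.81 to 0.21 for GRIN2D and -1.16 to 0.61 for GRIN3A. In mature cells they ran from -0.55 to 0.86 for GRIN1, -0.10 to 1.21 for GRIN2A, -1.12 to 0.43 for GRIN2B, -2.07 to 1.47 for GRIN2C and -0.85 to 0.39 for GRIN3A. The ratio differences ran from -0.43 to 2.59 for GRIN2A and -1.39 to 3.50 for GRIN2C, with the lowest values without the LPS male library. In mature cells the sign also turned with the marker score for GRIN1 (-0.041) and GRIN3A (0.33), and with the replicate block for GRIN2C (-0.023). GRIN2B in the oligodendrocyte lineage (-0.84 to -0.27) and GRIN2D in astroglia (-0.43 to -0.032) were below 0 under all 13 alternatives, with no call. The cause was not tested.

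Of 228 mean levels recomputed with doublets removed or at least 1000 genes per nucleus, both chosen after seeing the data, 224 moved by less than 1 SD. The exceptions came with doublets removed: GRIN2B at 80.5 CPM in Bergmann glia and 87.3 CPM in precursors, GRIN1 at 23.6 CPM in fibroblasts and GRIN2D at 23.1 CPM in microglia.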

Other observations

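GRIN3B, the remaining subunit gene, had 16 UMIs in all nuclei. The 2 clusters without a name held 5.61% of the GRIN2B UMIs and 8.57% of the GRIN2A UMIs. One of them held 2462 nuclei with a median of 760 UMIs, of which 1892 came from the LPS male library.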
